A study of Mus musculus with 12 samples.

Results

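The interaction of genotype and differentiation day was examined over all 12 of the 12 RNA-sequencing libraries of the series, which fall into 4 groups of 3. For each gene, the change from d0 to d4 in mutant cells was set against the change from d0 to d4 in WT cells, and the difference of these log2 changes is called the interaction here. A negative interaction means that a gene rose less, or fell more, in mutant cells than in WT cells, and the same number is also the mutant to WT gap at d4 minus that gap at d0. The libraries were chosen by their labels alone. Of 26967 genes listed in any of the 4 deposited tables, 21774 were listed in all of them, and 15114 of these passed a filter on low counts and were tested.

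C2C12 is an established mouse myoblast line that grows as single cells and fuses into myotubes after its serum is reduced. The study compared unedited WT C2C12 cells with cells that carry the PGAM2-K176R change, lysine to arginine at a SUMO acceptor site, on both alleles. The mutant cells came from 1 clone made by CRISPR-mediated homologous recombination, so the mutation and any other property of that clone cannot be told apart. The d0 groups were undifferentiated cells in growth medium with fetal bovine serum, and the d4 groups had spent 4 days in differentiation medium with a low level of horse serum, in both genotypes alike. The day of each library was taken from its sample title, and the media from the study's methods. No label says that the 3 libraries of a group came from separate cultures. The study's methods speak of biological replicates but give a smaller number per condition than the libraries analysed here, while a figure caption on RNA sequencing at d0 and d4 gives 3 per group. The p-values therefore rest on the spread among these libraries, and whether that spread is biological or technical is not known.

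PGAM2 is the muscle form of phosphoglycerate mutase, an enzyme late in glycolysis, and PGAM1 is the form found in most other cells. When myoblasts differentiate, they leave the cell cycle, MYOD1 and MEF2 factors switch on myogenin and the genes of the contractile apparatus, and the cells fuse. Cells that are short of amino acids or that carry misfolded proteins activate the transcription factor ATF4, which raises genes for amino acid synthesis, amino acid import and tRNA charging in what is called the integrated stress response.

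The d0 libraries held 17695434 to 21412560 reads on genes each, and the d4 libraries held 16098407 to 20748164. Read counts were normalised to the library size as CPM, which does not correct for gene length, so levels are compared between samples and not between genes. Of the muscle cell markers, Des, Myod1 and Mymk were present in all 4 groups, while Myog and Ckm, given below, were very low in mutant d0 cells. Des, which encodes the muscle intermediate filament desmin, was at 1214 ± 155, 1524 ± 205, 4472 ± 155 and 3534 ± 64.3 CPM (mean ± SD, n = 3) in WT d0, mutant d0, WT d4 and mutant d4 cells. This order of groups is kept for all such lists of 4 values. Myod1, the myoblast determination factor, was at 70.2 ± 8.22, 59.4 ± 6.17, 228 ± 9.66 and 180.2 ± 8.78 CPM, and Mymk, which encodes the fusion protein myomaker, was at 22.8 ± 4.16, 6.503 ± 0.413, 1104 ± 39.4 and 303 ± 17.7 CPM. In bulk RNA, a lower level can come from fewer cells of a type or from less RNA per cell, and these cannot be told apart. Replicates of d0 groups differed from each other by more than those of d4 groups, with a chi-square per degree of freedom of 12.18 to 23.62 for pairs of d0 libraries and 3.251 to 6.879 for pairs of d4 libraries.

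The day-dependent change differed between genotypes for 2514 of 15114 genes, which is 16.6% of those tested, by edgeR's quasi-likelihood test with an adjusted p under 0.05 and an absolute log2 interaction of at least 1, which define a called gene throughout. The interaction was positive for 1312 of these genes (8.68%) and negative for 1202 (7.95%), and its median over all tested genes was 0.01 on the log2 scale. Scaled by library totals alone, 1761 genes were positive and 934 negative, and the median of all genes was 0.18. From d0 to d4, 1913 genes rose (12.7%) and 2010 fell (13.3%) in WT cells, 26% of those tested, while 2662 rose (17.6%) and 2569 fell (17%) in mutant cells. At d0, 481 genes were higher (3.18%) and 1393 lower (9.22%) in mutant than in WT cells, and at d4 these counts were 747 (4.94%) and 1638 (10.8%).

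Most genes with a positive interaction had risen in mutant cells without a called change in WT cells. Of 1439 genes that rose in mutant cells alone, 685 had a positive interaction, and of 541 genes that fell in WT cells alone, 173 did. Of 1084 genes that fell in mutant cells alone, 411 had a negative interaction, and of 674 genes that rose in WT cells alone, 302 did. Another 1172 genes rose and 1418 genes fell in both genotypes, and among the former the rise was larger in mutant cells for 169 and smaller for 125. The genotypes moved in opposite directions for 118 genes, of which 51 fell in WT and rose in mutant cells and 67 rose in WT and fell in mutant cells.

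Seen as a gap between genotypes, the interaction had different forms in each direction. Among 652 genes that were lower in mutant cells at d0 but showed no called gap at d4, 429 had a positive interaction, so the gap was smaller after differentiation. Among 895 genes with no called gap at d0 that were lower in mutant cells at d4, 575 had a negative interaction. A positive interaction did not mean a high level in mutant cells: 1217 of the 1312 genes were lower in mutant than in WT cells at d0 by group mean, and 281 were still lower at d4. On the linear scale, the difference between the changes in mean CPM had the other sign for 66 of the 1312 genes and for 18 of the 1202.

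**Figure D1:**
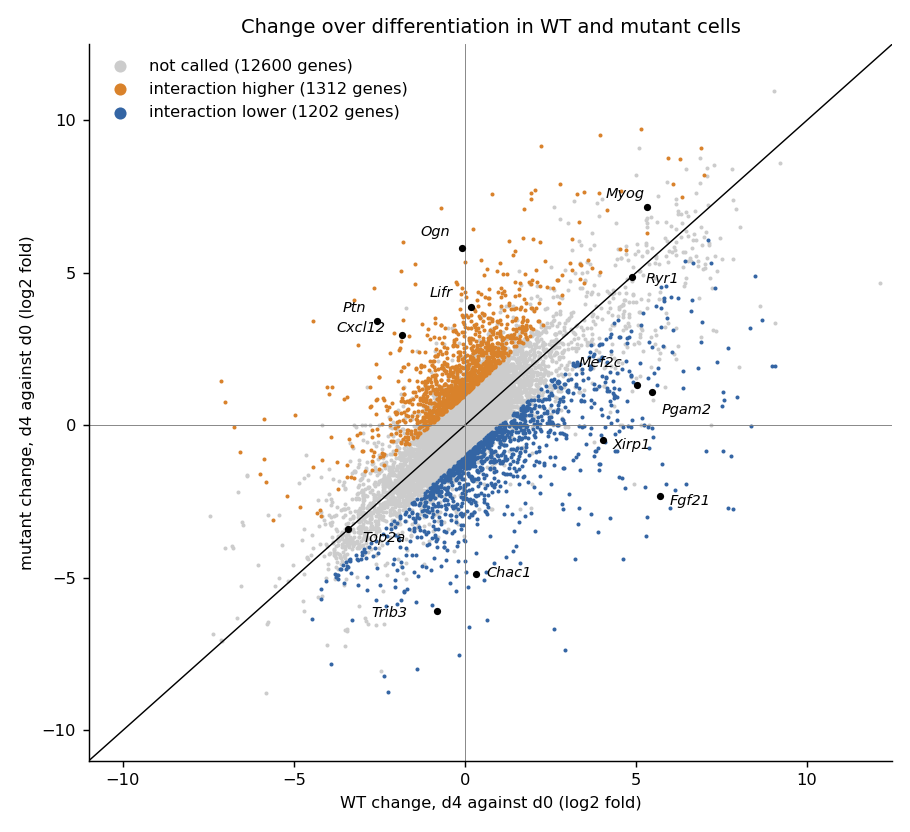
Change from d0 to d4 in mutant cells (y axis, log2 fold change) against the change in WT cells (x axis, log2 fold change), 1 point per tested gene, with positive and negative interactions coloured and the diagonal marking an equal change. Pgam2, Mef2c, Xirp1, Trib3 and Chac1 lie below the diagonal, Ogn, Ptn, Cxcl12 and Lifr lie above it, and Ryr1 and Top2a lie on it, while Myog lies above it on this log2 scale but below equality with a pseudocount of 5 FPKM.

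Gene groups differed in direction, and the count of each list below is to be read against the 8.68% of all tested genes that were positive and the 7.95% that were negative. The list of integrated stress response genes had 28 called members of 35 tested, all with a negative interaction, and its median was -1.94 on the log2 scale. Lists for ribosome biogenesis, oxidative phosphorylation, mitochondrial import, glycolysis, the Z-disc and excitation-contraction coupling had negative medians, from -1.34 for the Z-disc to -0.50 for glycolysis. Lists for matrix glycoproteins, interferon response, cytokines, Notch signalling and fibroblast or smooth muscle markers had positive medians, from 0.54 for cytokines to 0.96 for interferon response. Genes of the SUMO pathway had a median of 0.00 over 19 tested members, -0.01 with DESeq2-type size factors and 0.17 with library totals. Of the 19, 1, Senp7, was called, and with library totals 2 were called as positive. The interaction of Senp7 was 1.17, which dropped to 0.69 with a pseudocount of 1 FPKM and lost its call.

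**Figure D2:**
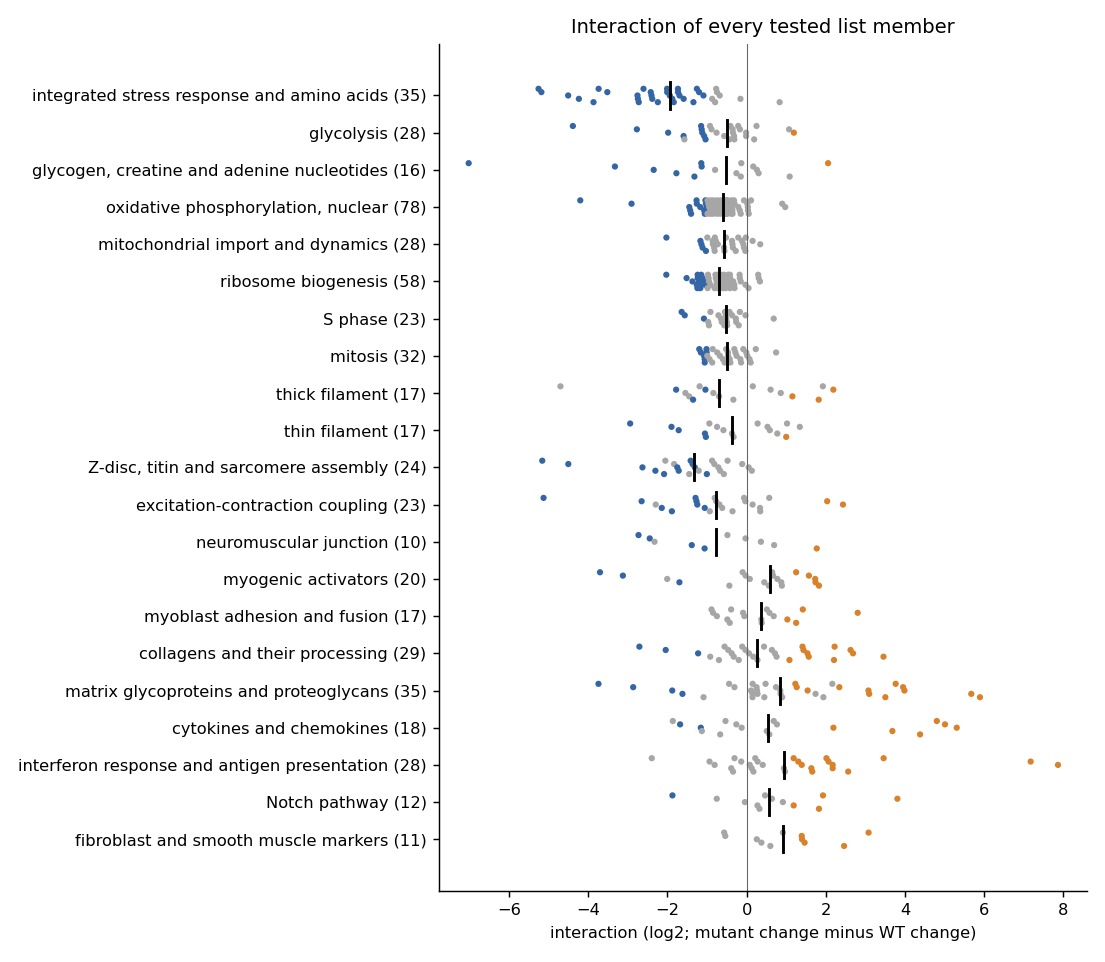
Interaction on the log2 scale (x axis) for the members of the gene lists (y axis), 1 point per tested gene, with called members coloured and a bar at each list's median. The integrated stress response list is centred at -1.94 and the interferon list at 0.96, against a median of 0.01 over all 15114 genes.

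Pgam2 itself rose far less in mutant cells. Pgam2 (chr11:5801640-5803733, minus strand, mm10) was at 2.61, 2.24 and 2.601 CPM in the WT d0 libraries, 3.97, 5.61 and 3.29 CPM in the mutant d0 libraries, 105, 111 and 114 CPM in the WT d4 libraries and 9.08, 8.86 and 9.41 CPM in the mutant d4 libraries. The genotypes overlapped at neither day, since the mutant libraries were the higher ones at d0 and the lower ones at d4. The rise was 44.1-fold in WT and 2.11-fold in mutant cells, and the interaction was -4.39 (SE 0.21, edgeR adjusted p = 3.48e-12). The edit changes a codon of this gene, and reads cannot be assigned here to the edited base. Pgam1, the form of most other tissues, was at 328 ± 59.4, 527 ± 63.6, 137 ± 13.2 and 148 ± 2.697 CPM, with an interaction of -0.57 that did not reach the size required for a call.

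The promoter of Pgam2 is shown because this gene carries the edit and has one of the larger interactions among muscle genes. It spans 250 bases before to 50 after the RefSeq start, in build GRCm38.p6, at chr11:5803747-5804046 on the minus strand, 5′ to 3′, with capitals marking the letters CAGCTG, a core of the E-box that myogenic factors bind.
Pgam2: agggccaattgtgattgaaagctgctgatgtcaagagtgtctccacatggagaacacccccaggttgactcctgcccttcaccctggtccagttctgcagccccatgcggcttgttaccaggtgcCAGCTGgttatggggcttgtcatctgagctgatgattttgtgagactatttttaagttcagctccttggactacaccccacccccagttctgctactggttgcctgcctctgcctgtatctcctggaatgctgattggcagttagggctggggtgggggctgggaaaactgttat
Counting both strands, CAGCTG occurred in at least 1 promoter of 18.4% of the tested genes that matched a promoter, of 20.6% of those with a positive interaction and of 21.7% of those with a negative interaction. Counted per promoter, since some genes have several, the shares were 15.8%, 18.3% and 18.3%. A match of letters is a description of the sequence and does not show binding.

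Other genes of glycolysis and energy storage had negative interactions too. Of 28 glycolysis genes tested, 9 had a negative and 1 a positive interaction, with a median of -0.50 on the log2 scale, and with library totals in place of TMM 4 were negative and 2 positive, with a median of -0.33. Eno3, which encodes the muscle enolase next to phosphoglycerate mutase in the pathway, was at 536 ± 108, 691 ± 86.04, 1039.5 ± 76.1 and 196 ± 4.81 CPM, a fall in mutant cells without a called change in WT cells, with an interaction of -2.77 (SE 0.16). Pfkm, the muscle phosphofructokinase, was at 74.9 ± 4.32, 70.7 ± 5.44, 504 ± 29.8 and 120.5 ± 2.47 CPM, and its interaction was -1.98 (SE 0.11). The enzymes of highest level were not called, with interactions of -0.89 for Gapdh, -0.17 for Pkm and -0.34 for Eno1. Among 16 genes of glycogen, creatine and adenine nucleotide metabolism, 7 had a negative and 1 a positive interaction. Gys1, the muscle glycogen synthase, had an interaction of -2.35 and Ckb, the brain-type creatine kinase, one of -3.32, while Ampd3, an AMP deaminase, had one of 2.06. Ckm, the muscle creatine kinase, was at 2.62 ± 0.831, 0.0722 ± 0.0274, 306 ± 5.64 and 19.8 ± 4.13 CPM and was not called, and its interaction of 1.09 (SE 0.71) turned to -2.88 when a pseudocount of 1 FPKM was added.

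Genes of the integrated stress response fell together in mutant cells and much less in WT cells. Of 35 members tested, 32 fell from d0 to d4 in mutant cells and 9 in WT cells, with median changes of -2.23 and -0.29 on the log2 scale. At d0, 1 member was called between genotypes, as lower in mutant cells, and at d4, 29 members were called, all as lower in mutant cells. Trib3, a pseudokinase that ATF4 induces, was at 147, 118 and 211 CPM in the WT d0 libraries, 174, 204 and 235 CPM in the mutant d0 libraries, 92.4, 96.4 and 79.3 CPM in the WT d4 libraries and 3.13, 2.98 and 2.91 CPM in the mutant d4 libraries. Every mutant d4 library was far below the other 9. Its interaction was -5.25 (SE 0.26, edgeR adjusted p = 5.11e-12).

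Chac1, which degrades glutathione, was at 105, 79.8 and 111 CPM in the WT d0 libraries, 93.2, 159.5 and 163 CPM in the mutant d0 libraries, 122, 132 and 112 CPM in the WT d4 libraries and 2.93, 5.73 and 5.63 CPM in the mutant d4 libraries. Here too the mutant d4 libraries were alone at a low level, and the WT libraries of both days lay close together. The interaction of Chac1 was -5.18 (SE 0.29, edgeR adjusted p = 2.72e-11). Asns, the asparagine synthetase, was at 284, 232 and 348 CPM in the WT d0 libraries, 397, 448 and 469.8 CPM in the mutant d0 libraries, 248, 272 and 228 CPM in the WT d4 libraries and 19.01, 21.1 and 20.3 CPM in the mutant d4 libraries. The mutant libraries were the highest of all at d0 and the lowest at d4, with an interaction of -4.24 (SE 0.17, edgeR adjusted p = 3.10e-13). Mthfd2, a mitochondrial enzyme of folate metabolism, was at 176.3, 169 and 206 CPM in the WT d0 libraries, 271, 269 and 285 CPM in the mutant d0 libraries, 236, 244 and 211 CPM in the WT d4 libraries and 16.8, 14.1 and 14.5 CPM in the mutant d4 libraries. Mutant libraries were again the highest at d0 and the lowest at d4, and its interaction was -4.51 (SE 0.13, edgeR adjusted p = 5.69e-15).

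Several further members were looked up after their values were seen. Atf4, whose product controls the response, was at 608 ± 68.4, 708 ± 64.8, 574 ± 26.5 and 207 ± 19.1 CPM, an interaction of -1.69 (SE 0.13). Slc7a5, an importer of large neutral amino acids, was at 329 ± 59.6, 330.1 ± 22.4, 324 ± 33.2 and 24.4 ± 2.64 CPM, and its interaction was -3.74. Phgdh and Psat1 carry out successive steps of serine synthesis from the glycolytic intermediate that PGAM2 acts on, and they had interactions of -3.52 and -2.40. Ddit3, which encodes CHOP, was at 100.4 ± 33.1, 94.1 ± 14.02, 46.9 ± 3.87 and 39.5 ± 2.68 CPM with an interaction of -0.15 (SE 0.22) and was not called. Slc7a1, a cationic amino acid importer chosen by its small adjusted p, had an interaction of -2.91 (SE 0.11).

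Fgf21, a secreted hormone whose gene ATF4 can induce, moved in opposite directions. It was at 4.801, 3.87 and 4.45 CPM in the WT d0 libraries, 1.398, 1.402 and 3.29 CPM in the mutant d0 libraries, 224, 254 and 201 CPM in the WT d4 libraries and 0.151, 0.805 and 0.186 CPM in the mutant d4 libraries. WT d4 libraries were higher than all other libraries and the mutant d4 libraries were lower than all others. Its interaction was -8.00 (SE 0.47, edgeR adjusted p = 7.98e-11).

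The promoters of Chac1, Asns and Trib3 are shown because the most negative members of the list are among them, and because they hold the letters TGATGNAA, a core of the element that ATF4 and C/EBP proteins bind. The letters were chosen after the values had been seen. Each window spans 250 bases before to 50 after the RefSeq start in build GRCm38.p6, 5′ to 3′, and capitals mark TGATGNAA or its reverse complement, and also CAGCTG. Chac1 is at chr2:119350992-119351291 on the plus strand, Asns at chr6:7693160-7693459 on the minus strand and Trib3 at chr2:152344011-152344310 on the minus strand.
Chac1: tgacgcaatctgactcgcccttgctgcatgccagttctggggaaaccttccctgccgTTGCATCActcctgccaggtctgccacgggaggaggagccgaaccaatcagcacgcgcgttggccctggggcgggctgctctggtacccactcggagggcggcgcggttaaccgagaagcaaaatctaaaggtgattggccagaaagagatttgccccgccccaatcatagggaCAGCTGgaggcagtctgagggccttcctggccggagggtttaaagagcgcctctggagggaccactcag
Asns: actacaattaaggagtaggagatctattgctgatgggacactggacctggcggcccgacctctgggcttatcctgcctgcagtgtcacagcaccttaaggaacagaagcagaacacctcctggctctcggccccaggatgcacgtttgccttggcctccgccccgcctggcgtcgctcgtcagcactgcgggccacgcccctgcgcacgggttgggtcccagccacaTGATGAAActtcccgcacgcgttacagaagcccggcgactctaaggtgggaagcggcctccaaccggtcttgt
Trib3: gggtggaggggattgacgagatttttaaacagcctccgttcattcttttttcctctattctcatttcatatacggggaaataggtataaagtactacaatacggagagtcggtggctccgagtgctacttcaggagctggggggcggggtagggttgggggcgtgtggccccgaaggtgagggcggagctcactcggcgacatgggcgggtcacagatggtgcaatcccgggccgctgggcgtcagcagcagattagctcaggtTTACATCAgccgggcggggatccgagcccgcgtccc
TGATGNAA was found in a promoter of 11 of the 22 called members of the list that matched one, which is 50%, against 298 of the 10629 tested genes that matched one, or 2.8%. The list was made of genes of this response, so a high share can follow from that choice whatever their interaction. Uncalled members of the list were not counted, so the share does not bear on the interaction. Among matched genes with a negative interaction the share was 5.33%, and among those with a positive interaction it was 2.83%. Counted per promoter, the letters were in 316 of 13615 promoters of tested genes, or 2.32%. The promoters of Mthfd2, Atf4 and Phgdh did not hold these letters in this window.

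**Figure D3:**
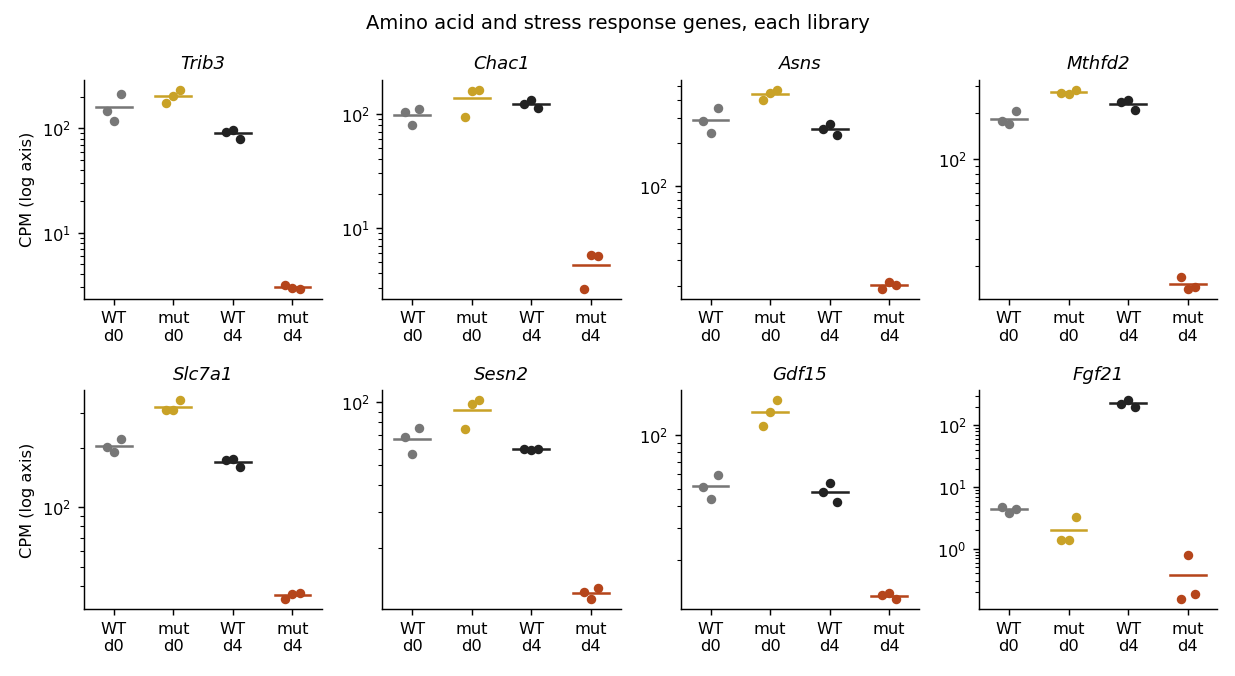
Level of 8 genes in each library (y axis, CPM on a log axis) by group (x axis, WT and mutant at d0 and d4), 1 point per library and a line at the group mean. In Trib3, Chac1, Asns and Mthfd2, the 3 mutant d4 libraries lie below the other 9.

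Muscle regulators moved in both directions. Of 20 genes for myogenic activators, 5 had a positive and 3 a negative interaction. Mef2c, a MEF2 factor that drives muscle genes with the myogenic factors, was at 7.13, 8.27 and 6.48 CPM in the WT d0 libraries, 13.3, 10.96 and 9.99 CPM in the mutant d0 libraries, 252, 244 and 217 CPM in the WT d4 libraries and 25.97, 28.1 and 31.8 CPM in the mutant d4 libraries. It rose in both genotypes, and the mutant libraries ended below those of WT without overlap. The interaction of Mef2c was -3.70 (SE 0.17, edgeR adjusted p = 1.66e-12). Tead4, a factor that works with MYOD1 in differentiating muscle, was at 24.5 ± 3.57, 31.3 ± 1.26, 155 ± 1.66 and 22.7 ± 2.17 CPM, so it rose in WT cells without a called change in mutant cells, with an interaction of -3.12 (SE 0.14).

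Myog, which encodes myogenin, was at 38.5, 31.1 and 28.04 CPM in the WT d0 libraries, 0.615, 0.675 and 1.19 CPM in the mutant d0 libraries, 1276, 1346 and 1263 CPM in the WT d4 libraries and 114, 115 and 123 CPM in the mutant d4 libraries. Mutant libraries were lower than WT libraries at both days, and the mutant d4 level was above the WT d0 level. The fold rise was 39.8-fold in WT and 141-fold in mutant cells, so the interaction was positive, 1.83 (SE 0.23, edgeR adjusted p = 2.85e-06), although it turned to -1.10 with a pseudocount of 5 FPKM and the increase in CPM was larger in WT cells. Myod1 had an interaction of -0.10 (SE 0.13, edgeR adjusted p = 0.548) and Mymk one of -0.06 (SE 0.15), and neither was called. Myf5, the early determination factor, was at 46.3 ± 10.9, 36.4 ± 7.92, 29.00 ± 0.492 and 75.6 ± 4.51 CPM, a rise in mutant cells without a called change in WT cells, with an interaction of 1.73 (SE 0.21). Pax7, a factor of muscle progenitors, was at 18.2 ± 1.72, 0.0373 ± 0.0646, 24.3 ± 1.44 and 0.523 ± 0.211 CPM, and its interaction of 3.17 rested on mutant d0 counts near zero and turned to -0.17 with a pseudocount of 1 FPKM.

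Of 17 genes for adhesion and fusion, 4 had a positive interaction and none a negative one at this threshold. Mymx, which encodes the fusion protein myomixer, was at 3.98 ± 0.797, 0.0895 ± 0.0574, 245 ± 7.496 and 42.2 ± 2.63 CPM, an interaction of 2.81 (SE 0.43) that turned to -0.34 with a pseudocount of 1 FPKM. Dock1 and Kirrel, which act in myoblast adhesion and fusion in flies and vertebrates, had interactions of 1.25 and 1.03, of which the latter lost its call without WT d0 replicate 1 at 0.975, and Cdh15, the muscle cadherin, had an interaction of 0.51 and was not called. In the splicing list of 12 tested genes, 2 were called in each direction, or 5 positive and 2 negative with library totals. Rbm38 was at 11.1 ± 1.098, 19.5 ± 2.46, 111 ± 6.52 and 19.2 ± 3.33 CPM with an interaction of -3.35 (SE 0.17), and Mbnl1, a regulator of muscle exon choice, was at 276 ± 32.5, 204 ± 29.9, 207 ± 12.2 and 370.3 ± 2.09 CPM with an interaction of 1.28 (SE 0.14). Rbfox1, another splicing regulator, had an interaction of -7.15 (edgeR adjusted p = 0.0432) on very low counts in 3 of the 4 groups, and the adjusted p was between 0.0505 and 0.961 in the 7 fits that left out a library and lost the call.

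Sarcomere genes were lower in mutant cells at d4, and most thick filament genes were already lower at d0. All 17 tested thick filament genes rose in WT cells and 16 rose in mutant cells, and at d0 and at d4 alike 16 were lower in mutant cells. Their interactions were called for 3 in each direction. Myh3, the embryonic myosin heavy chain, was at 30.7, 32.9 and 23.1 CPM in the WT d0 libraries, 1.398, 0.467 and 0.511 CPM in the mutant d0 libraries, 3457, 3444 and 3394 CPM in the WT d4 libraries and 439.6, 427 and 422 CPM in the mutant d4 libraries. At each day the mutant libraries lay below the WT libraries. The interaction of Myh3 was 2.19 (SE 0.27, edgeR adjusted p = 2.17e-06), but -0.62 with a pseudocount of 1 FPKM.

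Mylpf, a fast myosin light chain, was at 55.3 ± 13.2, 4.08 ± 0.412, 3754 ± 233 and 979 ± 42.9 CPM, an interaction of 1.82, and Myom3, an M-band protein, was at 3.07 ± 0.441, 0.492 ± 0.0341, 315 ± 16.9 and 20.1 ± 1.32 CPM, an interaction of -1.35. Of 17 thin filament genes, 1 had a positive and 5 a negative interaction, or 2 and 3 with library totals. Tpm2, the beta tropomyosin, was at 268 ± 17.9, 229 ± 10.9, 2872 ± 77.5 and 749 ± 20.5 CPM with an interaction of -1.71 (SE 0.10). Acta1, the skeletal actin, was at 61.8 ± 14.1, 6.32 ± 0.759, 4956 ± 126 and 761 ± 42.03 CPM and was not called, with an interaction of 0.59 (SE 0.18). Over the alternative settings the interaction of Acta1 ran from -0.38 to 0.75. The d4 levels of the fast myosins Myh1 and Myh4 were low in mutant cells (4.44 and 0.569 CPM) and high in WT cells (852 and 243 CPM). Their interactions had standard errors of 1.30 and 3.23, since mutant d0 counts were near or at 0, and no difference in fold change was detectable at this depth with edgeR. With a pseudocount of 1 FPKM, limma gave -5.265 for Myh1 and -5.00 for Myh4. Cav3, the muscle caveolin, was not resolved in edgeR either, with an SE of 2.34, and its interaction was -4.14 in that setting.

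The Z-disc and assembly genes were more one-sided. Of 24 tested, 11 had a negative interaction and none a positive one. Xirp1, an actin-binding protein of forming myofibrils, was at 17.5, 16.4 and 11.99 CPM in the WT d0 libraries, 56.5, 57.5 and 52.9 CPM in the mutant d0 libraries, 253, 257 and 239 CPM in the WT d4 libraries and 43.3, 41.4 and 35.4 CPM in the mutant d4 libraries. Mutant libraries were higher at d0 and lower at d4 than the WT libraries. Its interaction was -4.50 (SE 0.15, edgeR adjusted p = 4.90e-14). Hspb7, a small heat shock protein of muscle, was at 0.883 ± 0.218, 0.978 ± 0.344, 185 ± 6.53 and 5.76 ± 0.375 CPM with an interaction of -5.16 (SE 0.32), and Smyd1, a methyltransferase needed for myofibril assembly, was at 11.1 ± 1.39, 14.8 ± 2.33, 168 ± 6.11 and 36.3 ± 0.348 CPM with an interaction of -2.63.

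In the list of excitation-contraction coupling, 8 of 23 genes had a negative and 2 a positive interaction. Casq1, a calcium-binding protein of the sarcoplasmic reticulum, was at 0.377 ± 0.287, 0.127 ± 0.0249, 123 ± 6.95 and 1.24 ± 0.416 CPM, and its interaction was -5.13 (SE 1.04). Ryr1, the calcium release channel, was at 36.5 ± 3.94, 16.7 ± 1.79, 1079 ± 12.9 and 484 ± 16.8 CPM and rose alike, with an interaction of -0.03 (SE 0.12). Cacna1s, the voltage sensor of the channel, was at 2.83 ± 0.434, 0.113 ± 0.114, 219.7 ± 1.59 and 48.8 ± 1.11 CPM, an interaction of 2.43 that turned to -1.53 with a pseudocount of 1 FPKM. At the neuromuscular junction, 4 of 10 genes had a negative interaction, including the acetylcholine receptor subunits Chrna1 with an interaction of -1.06, or -0.89 and no call with library totals, and Chrnd with an interaction of -1.38, and 1 had a positive one, Lrp4 with an interaction of 1.77. Of 14 genes of the muscle membrane and dystrophin complex, 4 had a negative interaction, including Cavin4 with an interaction of -2.56 and Dysf, the membrane repair protein dysferlin, with an interaction of -1.85.

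**Figure D4:**
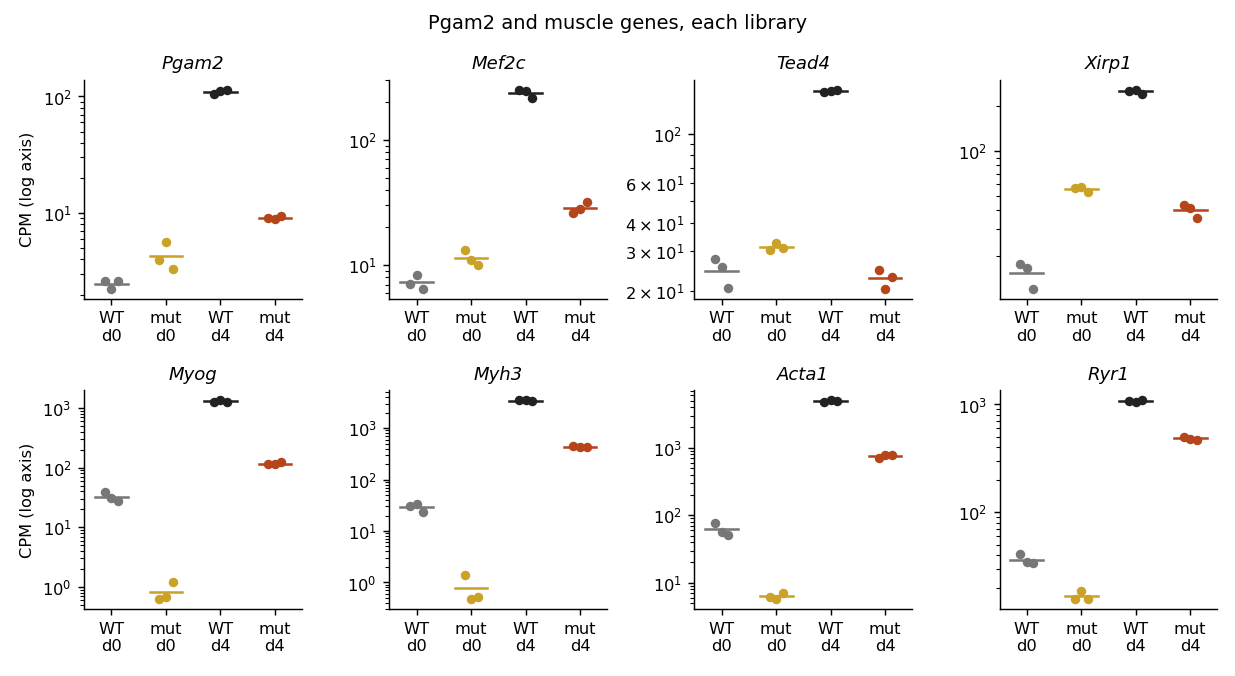
Level of Pgam2 and 7 muscle genes in each library (y axis, CPM on a log axis) by group (x axis, WT and mutant at d0 and d4), 1 point per library and a line at the group mean. Pgam2, Mef2c and Xirp1 have similar or higher mutant levels at d0 and lower ones at d4, while Myog and Myh3 are lower in mutant cells at both days and have positive interactions on the log2 scale that turn negative with a pseudocount of 5 FPKM.

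Most genes of oxidative phosphorylation had a small negative interaction. Of 78 nuclear genes of oxidative phosphorylation, 14 had a negative and 0 a positive interaction at the size required, and 64 were lower by the adjusted p of edgeR alone, with a median of -0.60. With library totals, 8 were negative and 1 positive. Cox6a2, the muscle form of a cytochrome oxidase subunit, was at 3.85 ± 1.81, 2.66 ± 0.508, 74.01 ± 4.21 and 2.74 ± 0.678 CPM, an interaction of -4.20 (SE 0.36). Atp5b, a core subunit of ATP synthase, was at 2079 ± 244, 2882 ± 279, 1976 ± 81.9 and 1630.1 ± 35.2 CPM, with an interaction of -0.75 (SE 0.12) under the size required. Of 28 genes of mitochondrial import and dynamics, 5 had a negative interaction, led by Timm10 with an interaction of -2.02, and with library totals 1 did. Genes of the TCA cycle had a median of -0.47 but 0 of 23 had a called negative interaction, and Pdk2, a kinase that inhibits pyruvate dehydrogenase, had a positive one of 1.01 that lies at the required size and fell under it in 6 of the fits that left out a library, where it was 0.886 to 0.990.

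Ribosome biogenesis genes had the same sign, with 14 of 58 called as negative, 49 lower by adjusted p alone, and a median of -0.69. In this list, 34 genes fell in mutant cells and 6 in WT cells. Rrp12, a ribosome export factor, was at 46.02 ± 3.24, 86.1 ± 7.58, 95.2 ± 1.28 and 43.7 ± 0.968 CPM, and its interaction was -2.03 (SE 0.11). The abundant nucleolar genes Ncl and Npm1 had interactions of 0.05 and 0.34 and were not called. Fatty acid genes were split, with Fabp3, a muscle fatty acid carrier, at 3.64 ± 0.495, 6.01 ± 0.664, 76.4 ± 9.27 and 11.6 ± 1.03 CPM with an interaction of -3.44 (SE 0.19), and Lpl, the lipoprotein lipase, at 73.1 ± 12.9, 68.6 ± 9.23, 50.1 ± 2.85 and 361 ± 18.9 CPM with an interaction of 2.94 (SE 0.16). Of 28 genes of cholesterol and fatty acid synthesis, 1 was called, Dhcr7 with an interaction of -1.32, and with library totals 1 was negative and 2 were positive.

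Cell cycle genes fell in both genotypes. All 32 mitosis genes tested fell in WT and in mutant cells, and 21 of 23 S phase genes fell in WT cells and all 23 in mutant cells. Top2a, the topoisomerase of dividing cells, was at 421 ± 55.5, 441 ± 59.4, 39.7 ± 0.789 and 41.4 ± 2.57 CPM, and Mki67, the Ki-67 antigen, at 322 ± 63.8, 242 ± 48.1, 24.8 ± 3.35 and 19.7 ± 2.69 CPM, with interactions of -0.01 (SE 0.14) and 0.07. With library totals, 1 mitosis gene had a negative interaction, against 7 with TMM. The interaction was negative for 3 S phase genes, among them Rrm2, a ribonucleotide reductase subunit, with an interaction of -1.64. Cdkn1a, the p21 inhibitor of cyclin-dependent kinases, was at 231 ± 26.7, 319 ± 24.9, 1874 ± 97.1 and 674 ± 3.404 CPM and its interaction was -1.94 (SE 0.12). It rose in both genotypes, and Cdkn1b, which encodes p27, had an interaction of 1.08. Of 21 genes of p53 and its targets, 7 had a negative and 3 a positive interaction. Gdf15, a stress-induced cytokine, was at 51.6 ± 7.97, 134 ± 21.4, 47.8 ± 5.67 and 12.6 ± 0.522 CPM with an interaction of -3.30, and Sesn2 and Sesn1, stress proteins of the sestrin family, had interactions of -2.74 and 1.89.

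Matrix genes were more often positive than negative. Of 35 matrix glycoprotein and proteoglycan genes, 12 had a positive and 4 a negative interaction, with a median of 0.85 on the log2 scale. At d0, 19 of the 35 were lower and 0 higher in mutant cells, with a median gap of -1.96. At d4, 17 were still lower and 1 was higher, with a median gap of -1.03. Of 29 collagen genes, 10 had a positive and 3 a negative interaction, with a median of 0.28. Ogn, the proteoglycan osteoglycin, was at 149, 223 and 214 CPM in the WT d0 libraries, 4.47, 3.06 and 3.23 CPM in the mutant d0 libraries, 189, 189.6 and 172 CPM in the WT d4 libraries and 186, 188 and 226 CPM in the mutant d4 libraries. Only the mutant d0 libraries were low, and the mutant d4 libraries overlapped those of WT at both days. Its interaction was 5.89 (SE 0.21, edgeR adjusted p = 7.26e-14). Nid2, a basement membrane protein, was at 265 ± 27.4, 20.5 ± 1.65, 162 ± 5.82 and 199 ± 3.81 CPM with an interaction of 3.99 (SE 0.12), and Col6a1, a collagen VI chain, was at 370.4 ± 18.8, 70.6 ± 8.88, 429 ± 11.1 and 505 ± 1.73 CPM with an interaction of 2.63 (SE 0.11). Fbln1, a fibulin of elastic matrix, went the other way at 119 ± 11.98, 78.9 ± 8.79, 101 ± 6.96 and 5.03 ± 0.2397 CPM with an interaction of -3.74 (SE 0.15). Fn1 and Sparc, matrix genes of high level, had interactions of -0.44 and 0.28 and were not called. Prelp, another matrix proteoglycan, was at 8.18 ± 3.07, 0.0373 ± 0.0646, 33.6 ± 2.15 and 8.97 ± 0.939 CPM, and its interaction of 5.67 turned to -0.38 with a pseudocount of 5 FPKM.

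The markers of fibroblasts and smooth muscle moved with these genes. Of 13 such markers, 11 passed the filter, and 5 had a positive and none a negative interaction. Their summed level was 1524.0 to 1892.0 CPM in WT d0, 692 to 788 CPM in mutant d0, 2170.0 to 2279.0 CPM in WT d4 and 2605.0 to 2688.0 CPM in mutant d4 libraries. Ly6a, given below, is a member and alone held 1479.6 to 1552 CPM of the mutant d4 sum, so the sum does not stand for each member. From d0 to d4 in WT cells, 0 members rose and 5 fell. At d4, 1 member was higher and 2 were lower in mutant cells, with a median gap of -0.49 on the log2 scale. Pdgfrb, a receptor of fibroblasts and mural cells, was at 258 ± 30.7, 33.3 ± 2.67, 233 ± 6.55 and 166 ± 11.3 CPM with an interaction of 2.46 (SE 0.12). Their part in the matrix result was not tested. Ly6a, also called Sca-1, a surface marker of several mesenchymal cells, was at 350.3, 321 and 336 CPM in the WT d0 libraries, 175, 182 and 189 CPM in the mutant d0 libraries, 315, 319 and 351 CPM in the WT d4 libraries and 1479.6, 1493 and 1552 CPM in the mutant d4 libraries. The mutant d4 libraries were above all others and the mutant d0 libraries below all others. Its interaction was 3.08 (SE 0.10, edgeR adjusted p = 2.13e-14).

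Chemokine genes were also more often positive than negative. Of 18 cytokine and chemokine genes, 6 had a positive and 2 a negative interaction. Cxcl12, a chemokine that guides migrating progenitors, was at 231, 239 and 268 CPM in the WT d0 libraries, 6.71, 6.75 and 6.98 CPM in the mutant d0 libraries, 66.7, 69.2 and 68.6 CPM in the WT d4 libraries and 51.7, 54.4 and 52.1 CPM in the mutant d4 libraries. It fell in WT cells and rose in mutant cells, and the mutant d4 libraries stayed a little below those of WT. The interaction was 4.80 (SE 0.12, edgeR adjusted p = 4.57e-16). Cxcl5 and Cxcl1, chemokines for neutrophils, were at 30.7 ± 5.16, 3.94 ± 1.04, 1.86 ± 0.2401 and 9.44 ± 0.963 CPM and 9.804 ± 2.51, 1.85 ± 0.302, 0.6004 ± 0.3504 and 3.79 ± 0.446 CPM, with interactions of 5.31 and 5.01. The cytokine Csf1, of higher level, had an interaction of 0.77 (SE 0.11) and was not called.

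Of 28 interferon response and antigen presentation genes, 13 had a positive interaction and none a negative one, and the median was 0.96. Tap2, a peptide transporter, was at 9.495 ± 1.35, 2.62 ± 0.439, 4.500 ± 0.571 and 7.42 ± 1.04 CPM with an interaction of 2.57 (SE 0.26), and Ddx58, which encodes the RNA sensor RIG-I, was at 13.8 ± 0.945, 7.18 ± 0.944, 12.2 ± 1.48 and 20.1 ± 2.47 CPM with an interaction of 1.66. Irf1, an interferon regulatory factor, had an interaction of 1.39, whereas B2m, the light chain of class I molecules, was at 341 ± 14.2, 306 ± 16.9, 493 ± 16.7 and 469 ± 8.62 CPM with an interaction of 0.08, and was not called. With a pseudocount of 5 FPKM the interactions of Tap2, Ddx58 and Irf1 were 0.57, 0.43 and 0.83, and none was called.

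Signalling genes varied within their lists. In the Notch list, 4 of 12 genes had a positive and 1 a negative interaction, with Notch3, a Notch receptor, at 195 ± 4.59, 54.9 ± 3.63, 292 ± 4.53 and 292 ± 9.13 CPM with an interaction of 1.83 (SE 0.10), and Dll1, a Notch ligand, with an interaction of 3.81 that dropped to 0.89 with a pseudocount of 1 FPKM and lost its call. Hes6, an inhibitor of HES1, was the negative one at 45.2 ± 5.72, 33.3 ± 4.99, 197 ± 11.04 and 39.7 ± 5.15 CPM with an interaction of -1.87. In the BMP and TGF-beta list, 6 of 34 were positive and 3 negative, the latter close to the share over all genes. Fst, which encodes follistatin, an inhibitor of activins and myostatin, was at 3.06 ± 0.465, 1.46 ± 0.415, 66.5 ± 3.32 and 2.79 ± 0.144 CPM with an interaction of -3.51 (SE 0.26), and Tgfbr2, a TGF-beta receptor, had an interaction of 1.27. Among insulin-like growth factor genes, Igfbp5 was at 2587 ± 153, 1348 ± 87.96, 4518 ± 23.9 and 7032 ± 317 CPM with an interaction of 1.58 (SE 0.10), and Igfbp2, a further binding protein of these growth factors, was at 478 ± 71.8, 888 ± 129, 144 ± 7.005 and 46.8 ± 3.63 CPM with an interaction of -2.51 (SE 0.15). Lifr, the receptor of leukaemia inhibitory factor, was at 85.2, 92.8 and 98.9 CPM in the WT d0 libraries, 18.8, 16.5 and 17.1 CPM in the mutant d0 libraries, 104, 103 and 105 CPM in the WT d4 libraries and 261, 258 and 259 CPM in the mutant d4 libraries. It changed in mutant cells alone, with the mutant libraries lowest at d0 and highest at d4. The interaction of Lifr was 3.72 (SE 0.11, edgeR adjusted p = 5.69e-15).

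**Figure D5:**
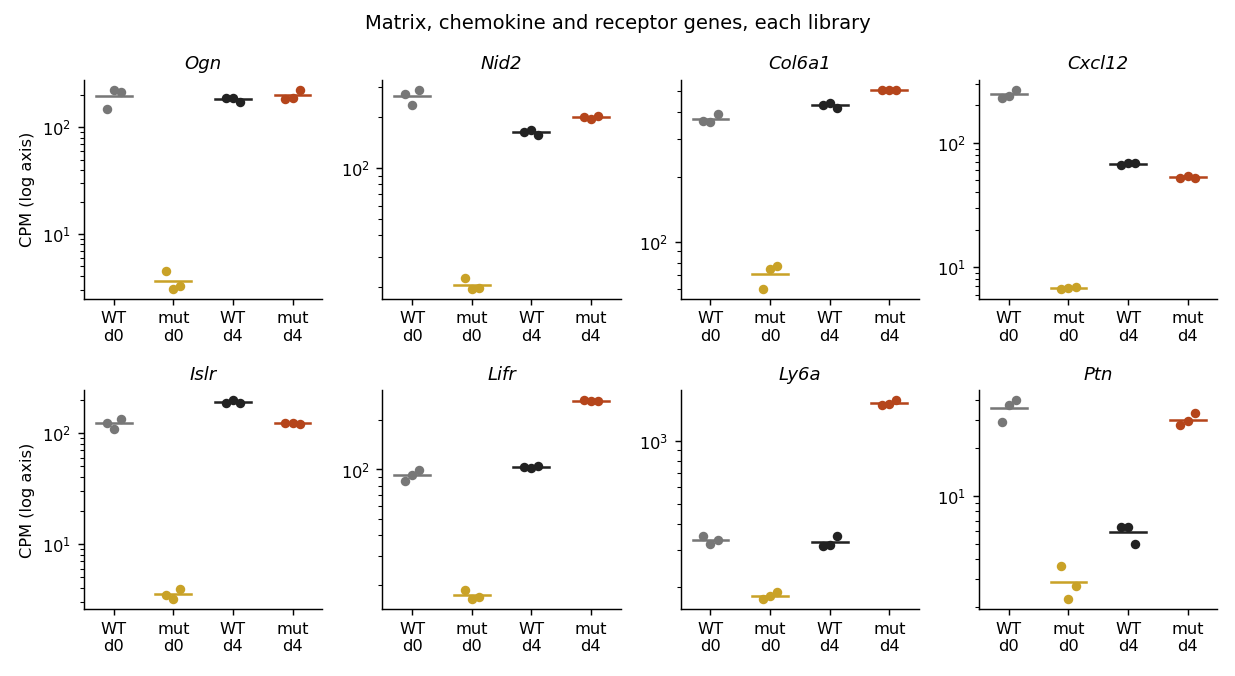
Level of 8 matrix, chemokine and surface genes in each library (y axis, CPM on a log axis) by group (x axis, WT and mutant at d0 and d4), 1 point per library and a line at the group mean. In Ogn and Cxcl12 the mutant d0 libraries lie far below the rest, and in Ly6a and Lifr the mutant d4 libraries lie above the rest.

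Ubiquitin ligases of muscle split. Fbxo32, the atrophy ligase atrogin-1, was at 41.4 ± 4.06, 10.8 ± 1.14, 86.2 ± 1.01 and 197 ± 8.99 CPM with an interaction of 3.14 (SE 0.13), and Trim54, a sarcomere-bound protein of the MURF family, was at 8.57 ± 0.924, 36.3 ± 5.28, 82.1 ± 0.878 and 17.8 ± 1.64 CPM with an interaction of -4.29 (SE 0.16). Of 10 genes in that list, 1 had a positive and 2 a negative interaction. Of 21 immediate early genes, 6 had a negative and 1 a positive interaction, or 3 and 1 with library totals, including the growth factor response genes Egr3 with an interaction of -2.07 and Nr4a1 with an interaction of -2.04, while Jun had an interaction of 0.03 and was not called.

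Ptn, a heparin-binding growth factor, was the most positive of the genes named here that moved in opposite directions. It was at 29.5, 37.6 and 40.03 CPM in the WT d0 libraries, 3.64, 2.23 and 2.72 CPM in the mutant d0 libraries, 6.404, 6.38 and 4.95 CPM in the WT d4 libraries and 27.8, 29.7 and 33.4 CPM in the mutant d4 libraries. WT cells lost most of it and mutant cells gained it, so the groups changed places. The interaction of Ptn was 5.99 (SE 0.23, edgeR adjusted p = 2.32e-13). Sfrp1, an inhibitor of Wnt ligands, was at 12.01 ± 0.6405, 0.0186 ± 0.0323, 2.899 ± 1.23 and 0.194 ± 0.104 CPM, an interaction of 5.08 that rests on 1 read over the 3 mutant d0 libraries. On the opposite side, Tspan13 was at 0.331 ± 0.0658, 1.84 ± 0.4899, 23.6 ± 2.55 and 0.438 ± 0.222 CPM, Fgfbp1, a carrier of fibroblast growth factors, at 0.802 ± 0.3904, 2.04 ± 0.316, 12.02 ± 0.317 and 0.179 ± 0.0739 CPM, and Pstpip1, a cytoskeletal adaptor, at 4.72 ± 0.775, 5.397 ± 0.311, 33.5 ± 0.575 and 0.9195 ± 0.292 CPM. Their interactions were -8.24, -7.39 and -5.40.

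Genes that changed in mutant cells alone included the matrix protease gene Adamts2, with 52.1 ± 7.74, 3.56 ± 0.675, 49.05 ± 2.52 and 43.8 ± 1.72 CPM and an interaction of 3.70 (SE 0.18), and Fap, a fibroblast surface protease, with 2.81 ± 0.8304, 0.514 ± 0.0999, 2.800 ± 0.632 and 10.7 ± 1.401 CPM and an interaction of 4.37. Adm2, a peptide hormone, was at 12.7 ± 4.02, 26.9 ± 3.56, 13.1 ± 1.88 and 0.9096 ± 0.628 CPM, a fall in mutant cells with an interaction of -4.85. Among the most negative genes, Fxyd6, a regulator of the sodium pump, had no reads in the 3 mutant d4 libraries against 18.5 CPM in WT d4. Its fitted interaction of -10.56 is therefore no bound, and the call was lost without mutant d0 replicate 3 (edgeR adjusted p = 0.9998). Among genes of high level that rose alike were Nfe2l1 at 525 ± 51.7, 554 ± 30.4, 1197 ± 21.5 and 1195 ± 15.3 CPM and Sh3pxd2a at 274 ± 12.4, 262 ± 9.61, 943 ± 17.6 and 877 ± 41.7 CPM, with interactions of -0.08 and -0.04. Actb, the cytoplasmic actin, and Flna, an actin crosslinker, fell alike, with interactions of -0.06 (SE 0.12) and -0.07 (SE 0.12).

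Lists of markers of other cell types differed in summed level. Of 13 pancreatic islet markers, 3 passed the filter, and their summed level was 3.26 to 5.89 CPM in WT d0, 14.1 to 22.6 CPM in mutant d0, 66.97 to 76.2 CPM in WT d4 and 42.2 to 43.3 CPM in mutant d4 libraries. Most of the sum at d4 was a single member, Mafa, at 4.47 ± 1.47, 7.87 ± 0.255, 67.7 ± 3.68 and 34.8 ± 0.715 CPM with an interaction of -1.78. Of the 3, 2 had a negative interaction and 1 a positive one, of 4.78. Ins2, which encodes insulin, was at 0.0475, 0.04400 and 0.132 CPM in the WT d0 libraries, 5.26, 4.15 and 12.03 CPM in the mutant d0 libraries, 3.202, 2.58 and 5.09 CPM in the WT d4 libraries and 7.41, 6.78 and 6.07 CPM in the mutant d4 libraries, and its interaction was -5.53 (SE 0.71). WT d0 libraries were close to zero and all other libraries had a low level. Of 13 neuron and glia markers, 9 passed, and 2 had a positive and 3 a negative interaction, with summed levels of 197 to 346 CPM in WT d0, 579 to 644 CPM in mutant d0, 163 to 175.6 CPM in WT d4 and 243 to 257 CPM in mutant d4 libraries. Nefl, a neurofilament subunit, was at 88.2 ± 27.9, 161 ± 7.42, 8.904 ± 1.698 and 1.88 ± 0.317 CPM with an interaction of -3.09 (SE 0.32). Of 16 pluripotent and germline markers, 2 passed, and 1, Rhox5, was called, with an interaction of -1.58. Their sum was 0.713 to 1.06 CPM in WT d0, 30.4 to 34.95 CPM in mutant d0, 2.19 to 2.48 CPM in WT d4 and 28.9 to 33.2 CPM in mutant d4. Of 5 bone and cartilage markers that passed, none was called. The 7 blood, endothelial and epithelial markers summed to 60.97 to 73.2, 220 to 259, 19.05 to 22.3 and 13.1 to 16.2 CPM in the 4 groups. Of these 7, 2 had a negative interaction. These are Krt19, a keratin, at 58.4 ± 5.93, 194 ± 18.6, 13.6 ± 1.13 and 8.29 ± 0.864 CPM with an interaction of -2.43, and Hba-a1, an alpha globin gene with a near-identical copy whose reads may be shared, with an interaction of -3.67. Their part in the interactions of muscle genes was not tested.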

How the data were processed

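Poly-A RNA selected from total RNA of 12 C2C12 samples had been sequenced in paired-end reads, and counts per gene had been made for the authors by a sequencing company. The submitters' processing notes list the build mm10 and the tool DESeq2 1.20.0. The sources used here name no aligner and do not say whether counting used strand, which leaves genes that overlap, or that have an antisense partner, uncertain. The deposited tables hold raw read counts for the 2 d0 groups and the mutant d4 group, and FPKM values with gene lengths for all libraries. The table deposited for WT d4 holds count columns titled as mutant d4, equal to those of the mutant d4 table (0 of 24787 genes unlike), and no WT d4 counts were used from it. WT d4 counts were therefore worked back from the deposited FPKM values and gene lengths. All came out whole within 0.01 reads, and the same steps returned the deposited counts of the other 9 libraries at every gene. The authors' own fold changes and p-values, also in the tables, were not used.

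Tables were joined on gene identifiers. Counts were fitted over all 12 libraries with edgeR 4.0.16 in R 4.3.3 (filterByExpr, TMM scaling, quasi-likelihood test with no block, Benjamini-Hochberg adjustment over 15114 genes), with a biological coefficient of variation of 0.0919. A call needed an adjusted p under 0.05 and an absolute log2 value of at least 1. Alternatives used DESeq2 1.42.0, limma 3.58.1 on log2(FPKM + pseudocount), glmTreat, other scaling, other filters, a replicate block and each library left out. Scripts were tested on simulated data. The gene groups and the 44 gene lists were chosen with earlier results of these data known. Named genes are the study's own genes, the extreme, opposite, mutant-only and alike genes of at least 10 CPM, and up to 4 called and 3 uncalled members of each list (called members of at least 5 CPM). Promoter windows came from RefSeq (GRCm38.p6) by symbol. Genes listed at 1 day only were left out of the tests reported and entered 1 alternative, with a filter on low counts, as 0 reads at the other day. Counting error alone is covered by the depth of a library.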

Additional observations from a re-analysis of the deposited data

Results flagged for a closer look

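The change from d0 to d4 differed between the genotypes in edgeR's interaction test for 1312 genes in the positive direction and 1202 in the negative direction. Of these, 51 fell in WT and rose in mutant cells, and 67 did the reverse. Tspan13 had an interaction of -8.24, Fgf21 of -8.00, Fgfbp1 of -7.39 and Pstpip1 of -5.40 on the log2 scale, and each rose in WT and fell in mutant cells. Sfrp1 at 5.08 and Ptn at 5.99 fell in WT and rose in mutant cells.

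Genes listed at 1 day only were left out of the tests in the report. At d4 only, 3013 genes were listed, of which 121 had a group mean of at least 10 reads. At d0 only, 2180 were listed, of which 20 did. Alb, which encodes albumin, had a mean of 506 reads in mutant d4 libraries and 184 in WT d4 libraries. Its libraries varied widely, with 277, 688 and 553 reads in mutant d4 and 185, 96 and 271 in WT d4. Ckmt2, the mitochondrial creatine kinase of muscle, had a mean of 119 reads in WT d4 and 0.333 in mutant d4 libraries. Iapp and Ins1, genes of pancreatic islet cells, had means of 35.3 and 31.3 reads in mutant d0 libraries, against 1 and 0.333 in WT d0.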

How the results depend on the processing

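Of 165 genes recomputed under 22 alternatives, 114 kept their call, or their lack of one, in all of them. Uncalled genes whose sign changed count among these, such as Acta1, which ran from -0.38 to 0.75. The interaction counts (positive, then negative) were 1295 and 1220 with DESeq2-type size factors in edgeR, and 1294 and 1250 in DESeq2. They were 1312 and 1201 with genes listed at either day (15216 genes tested). With a replicate block they were 1268 and 1175, and 96.1% of the calls were retained. The block used numbers that are shared by label only: deviations of same-numbered libraries correlated at -0.729 to 0.324 (median -0.0164, 18 pairs, over 8539 genes). It left Rbfox1 without a call (adjusted p 0.0605). With library totals, 65.3% of the calls were positive, against 52.2%.

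Leaving out 1 library gave 1195 to 1426 positive and 1128 to 1336 negative interactions, 1881 to 2005 rising and 1956 to 2062 falling genes in WT cells, 2517 to 2768 and 2509 to 2655 in mutant cells, 426 to 524 higher and 1285 to 1431 lower in mutant cells at d0, and 700 to 764 and 1630 to 1716 at d4.

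By adjusted p alone the counts were 3315 and 3520 for the interaction, 4439 and 4932 for WT cells, 5234 and 5491 for mutant cells, 3624 and 3569 at d0, and 3396 and 4048 at d4. With a test against the fold threshold (glmTreat) they were 478 and 518 for the interaction, 1190 falling in WT, 1709 rising in mutant cells, 183 and 822 at d0, and 302 higher at d4.

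In limma with a pseudocount of 1 FPKM, 576 interactions were positive and 829 negative, with 897 and 1160 in WT, 1092 and 1701 in mutant cells, 139 and 476 at d0, and 228 and 769 at d4. Without a filter these were 560 positive interactions, 889 and 1154, 1084 and 1698, 135 and 472, and 223 and 769. With 5 FPKM they were 194 and 401 interactions, 499 and 470 in WT, 496 and 865 in mutant cells, 42 and 144 at d0, and 69 and 367 at d4. With 0.1 FPKM, 310 were higher at d0. With 1, 5 and 0.1 FPKM, the filtered fits retained 54.7%, 22.9% and 90.6% of the 2203 edgeR calls that passed their filter. The call was opposite for 2 genes with 1 FPKM and for 6 with 5 FPKM. Without a filter, 1 FPKM retained 47.8% of all 2514 calls.

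Reversals were counted only for genes called in edgeR or in the alternative. Interactions that reversed with 1 FPKM, filtered or not, were Ckm -2.88, Mymx -0.34, Myh3 -0.62, Cacna1s -1.53 and Pax7 -0.17. With 5 FPKM they were Ckm -2.98, Myog -1.10, Mymx -1.59, Myh3 -1.97, Cacna1s -1.502, Pax7 -0.13 and Prelp -0.38. Calls lost without a reversal numbered 6 with 1 FPKM and 37 with 5 FPKM. A pseudocount pulls low groups toward each other by construction, and these genes are low in mutant d0 libraries. Beyond this the cause was not tested. Depth limits genes with mutant d0 counts near 0.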
